A study of Bos taurus with 6 samples.

Results

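Ribosome biogenesis and nucleolar genes were examined in bovine granulosa cells as a set of 50 genes chosen by symbol. Of these, 47 had at least 1 probe on the array, 44 could be tested, and 9933 genes were tested in all. The background limit of an array and dye was set 2 SD above the mean of its negative controls, and a gene was tested when 1 of its probes passed that limit in 3 or more of the 6 readings in the long or the conventional FSH group. The array held no probe annotated to UTP20, PPAN or HEATR1. BOP1, PES1 and RRP9 had a probe but exceeded the limit in too few readings (0, 1 and 2 of 6 in the long FSH group, and 2 of 6 each in the conventional FSH group), so that no level is given for them.

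The study compared a long superstimulation, in which FSH was given every 12 hours for 7 days, with a conventional one of 4 days. The animals were mature, multiparous Hereford cross-bred beef cows. Both groups had follicle ablation to start a new wave, progesterone, prostaglandin and, at the end, LH, and their ovaries were removed 24 hours after LH. Prostaglandin, the end of progesterone and LH came later in the wave in the long FSH group. The length of FSH treatment, the number of FSH doses, progesterone exposure and follicle age therefore cannot be told apart. RNA of granulosa cells pooled from the 3 largest follicles of a cow was amplified and hybridised on 2-colour arrays. Each of 3 long FSH cows was set against 1 conventional FSH cow, and each such cow pair was hybridised again with the dyes exchanged, which gave 6 arrays. All cows had received both FSH and LH, so there was no unstimulated group. Levels come from bulk RNA, in which fewer cells of a type and less RNA per cell cannot be told apart.

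Values are log2 ratios of long over conventional FSH, so that 1 is a 2-fold higher and -1 a 2-fold lower level in the long FSH group. They are means of 3 cow pairs ± SD. The sample labels and the design text give opposite dyes to the groups. The direction used here follows the design text and the study's legends, and is called likely for that reason. With the other reading, every higher and lower below would be exchanged.

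Ribosomes are assembled in the nucleolus. There RNA polymerase I transcribes the long precursor of the ribosomal RNAs, small nucleolar ribonucleoproteins (snoRNPs) modify it, and the small subunit processome and a series of 60S assembly factors fold and cut it into the subunits. The output of this pathway sets how much protein a cell can make, and it is known to follow growth and division, with the transcription factor MYC as a main activator. Granulosa cells multiply while the follicle grows under FSH and leave the cell cycle as they luteinise after LH.

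One member was higher in the long FSH group and none was lower at the study's limits, an unadjusted P of 0.05 or less with a difference of at least 2-fold. This was POLR1E, a subunit of RNA polymerase I. The other 43 tested members were not called. Among all tested genes 3.39% were called higher and 2.02% lower. At P of 0.05 or less with any fold, POLR1E was higher and FBL, encoding the methyltransferase fibrillarin, was lower, which is 1 of 44 in each direction, against 6.91% and 4.75% of all genes. After Benjamini-Hochberg adjustment over all genes (limma) no member passed 0.05, as 0 of all genes did. The smallest adjusted p among the members was 0.199, and among all genes 0.0767. The 44 ratios had a median of -0.08, against 0.03 over all tested genes, and 41 of them lay within 0.5 of 0.

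**Figure D1:**
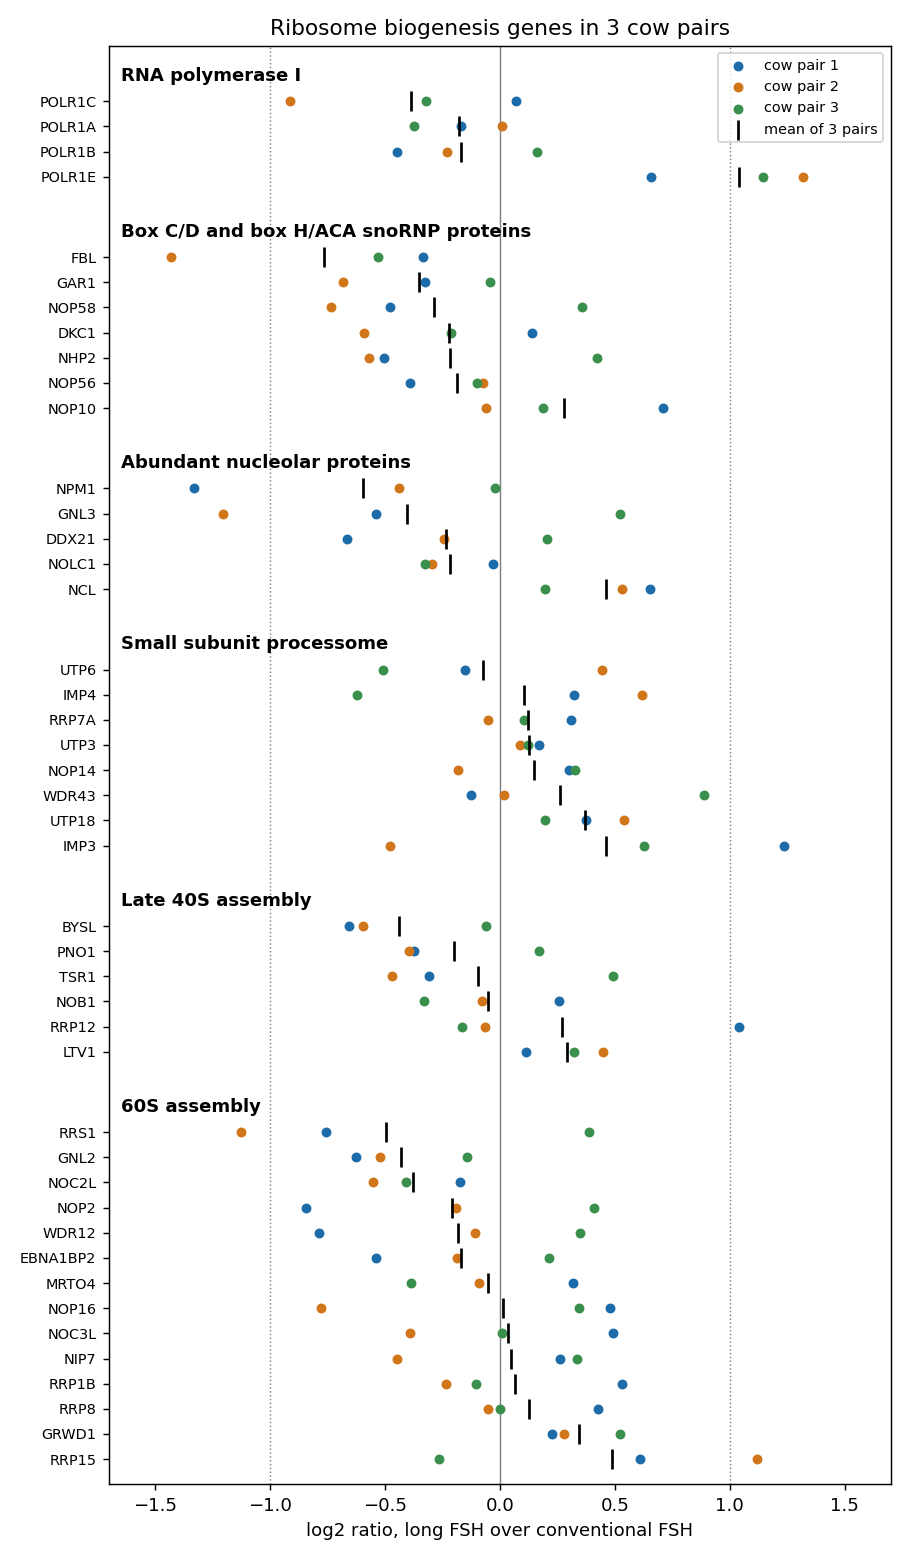
Log2 ratio of long over conventional FSH (horizontal axis) for each of the 44 tested members, grouped by role. Points are the 3 cow pairs, black bars their mean, and dotted lines mark 2-fold; POLR1E alone has a mean beyond a dotted line (1.04), while in 31 members the SD over the pairs exceeded the size of the mean.

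Among the 4 members of the RNA polymerase I group, POLR1E stood apart from the others. Its log2 intensity was 10.11, 10.32 and 10.40 in the long FSH cows of pairs 1, 2 and 3, against 9.45, 9.0 and 9.25 in the conventional FSH cows. The groups did not overlap, and each long FSH cow was above its partner on both arrays. The ratio was 1.04 ± 0.34 (SD, n = 3 pairs; adjusted p = 0.199, limma), a 2.06-fold difference with a 95% interval of 0.48 to 1.6 on the log2 scale. The 6 arrays gave 0.60 and 0.72 in pair 1, 1.19 and 1.46 in pair 2, and 0.97 and 1.32 in pair 3. The call rests close to the 2-fold limit. Without cow pair 2 the ratio was 0.90 and without pair 3 it was 0.99, both under 2-fold, and POLR1E had 1 probe on the array, so no other probe can be set beside it.

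The other 3 subunits of this group did not share this. POLR1A, which encodes the largest subunit, had a ratio of -0.18 ± 0.19, and POLR1B, the second largest, -0.17 ± 0.31. POLR1C, a subunit that RNA polymerase III also contains, was at -0.39 ± 0.50. Its probe was dim, above the limit in 3 of 6 long FSH readings and 5 of 6 conventional FSH readings. None of these 3 passed the test, with adjusted p of 0.701, 0.735 and 0.560 (limma). Their intervals allow ratios down to -0.68, -0.72 and -1.03 and up to 0.33, 0.38 and 0.25, all below the POLR1E mean. The difference between POLR1E and these 3 was not itself tested. A further subunit, POLR1H, is counted below among the other ribosome biogenesis genes, none of which was called.

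**Figure D2:**
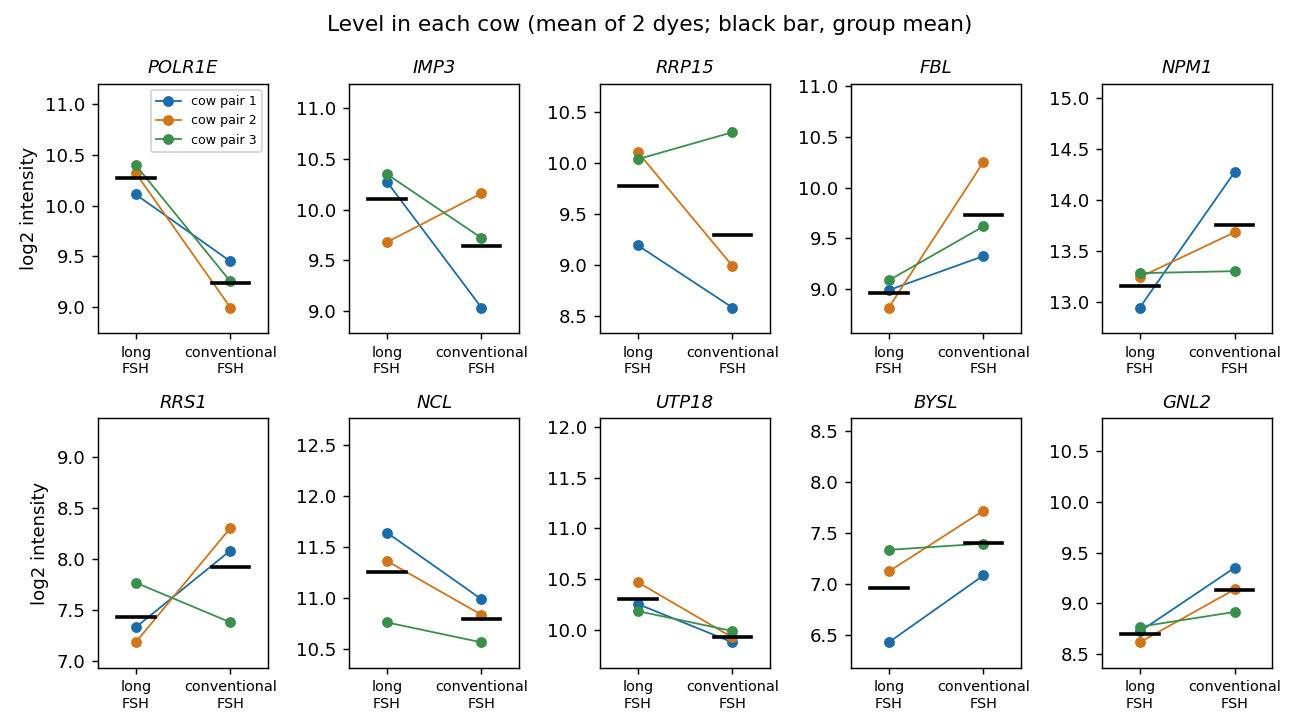
Log2 intensity (vertical axis) of 10 members in each cow, long FSH at the left and conventional FSH at the right of each panel; lines join the cows of a pair, bars are group means of 3 cows, and every vertical axis spans the same range of log2 units. POLR1E and UTP18 have all long FSH cows above all conventional FSH cows, and FBL, NPM1 and GNL2 have them all below.

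The snoRNP proteins, which carry out or guide 2'-O-methylation (box C/D) and pseudouridylation (box H/ACA) of ribosomal RNA, were all tested. None of the 7 was called, 6 had a ratio below 0, and the median was -0.22. In pair 2 all 7 were below 0 (median -0.59), while pair 1 had a median of -0.33 and pair 3 of -0.04. FBL had log2 intensities of 8.99, 8.82 and 9.09 in the long FSH cows, against 9.33, 10.25 and 9.62 in the conventional FSH cows. These values did not overlap, but most of the difference came from pair 2, whose conventional FSH cow was the highest. The ratio was -0.77 ± 0.59 (adjusted p = 0.392, limma), past the unadjusted limit but under 2-fold. The dye-swapped arrays disagreed for FBL in pair 1 (-0.86 and 0.19) and in pair 3 (-1.34 and 0.28), and agreed in direction only in pair 2 (-0.99 and -1.87). Without pair 2 the FBL ratio was -0.43, without the first array of pair 3 -0.49 and without the first array of pair 1 -0.59, and in none of these did it pass the unadjusted limit.

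The remaining box C/D proteins were NOP56 at -0.19 ± 0.18 and NOP58 at -0.29 ± 0.57, which form the core of the particle with fibrillarin. Of the box H/ACA proteins, the pseudouridine synthase DKC1 was at -0.22 ± 0.37, NHP2 at -0.22 ± 0.56 and GAR1 at -0.35 ± 0.32. GAR1 had no overlap between the groups, with 7.36, 7.28 and 7.46 in the long FSH cows against 7.69, 7.96 and 7.50 in the conventional FSH cows, yet its adjusted p was 0.544 (limma). NOP10 was the one snoRNP protein above 0, at 0.28 ± 0.39. A second, dimmer NOP10 probe gave -0.34, so its direction depends on the probe, and a second NHP2 probe gave -0.69.

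The abundant nucleolar proteins diverged among themselves. NPM1, nucleophosmin, a chaperone of the granular nucleolar compartment, had 12.95, 13.24 and 13.28 in the long FSH cows, against 14.28, 13.68 and 13.30 in the conventional FSH cows. The groups did not overlap, but the gap in pair 3 was only -0.02, and the ratio of -0.60 ± 0.67 did not pass (adjusted p = 0.483, limma). NCL, nucleolin, which binds the ribosomal RNA precursor, lay on the other side. It was at 11.64, 11.36 and 10.76 in the long FSH cows, against 10.99, 10.84 and 10.56 in the conventional FSH cows. NCL was above 0 in all 3 pairs and its groups overlapped, with a ratio of 0.46 ± 0.24 (adjusted p = 0.461, limma).

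GNL3, nucleostemin, had with IMP3 the widest spread over the pairs of all members (SD 0.87 each), with -0.54, -1.20 and 0.52 in pairs 1, 2 and 3. The RNA helicase DDX21 was at -0.23 ± 0.44, and NOLC1, a chaperone of snoRNPs, at -0.22 ± 0.16. NOLC1 was below 0 in all 3 pairs with no overlap between cows, at 7.68, 7.41 and 7.62 in the long FSH group against 7.70, 7.71 and 7.94 in the conventional FSH group, with a ratio of only -0.03 in pair 1. None of the 5 was called, and their median was -0.23.

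The small subunit processome, which assembles on the 5' part of the precursor and begins the 40S subunit, was the one role group with a median above 0, at 0.14. Of 11 members 8 were tested, 7 had a ratio above 0, and none was called. UTP18 had the smallest P of the group, at 0.37 ± 0.17 (adjusted p = 0.501, limma). Its levels were 10.26, 10.47 and 10.19 in the long FSH cows, against 9.88, 9.93 and 9.99 in the conventional FSH cows, with no overlap. The arrays of pair 2 read 1.24 and -0.16 for UTP18, and the ratio was 0.14 without the first of them and 0.60 without the second. IMP3, a partner of the U3 snoRNA, had the highest ratio of the group at 0.46 ± 0.87, with 10.28, 9.68 and 10.35 in the long FSH cows against 9.04, 10.16 and 9.72 in the conventional FSH cows. Pair 2 ran opposite to the other pairs for IMP3, and its interval reached from -0.43 to 1.35.

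The rest of the processome lay between -0.07 (UTP6) and 0.26 (WDR43). UTP3 and RRP7A were dim and exceeded the background limit in 5 and 3 of 6 readings in the long FSH group, against 2 of 6 each in the conventional FSH group. They therefore entered the test through the long FSH readings, and their ratios of 0.13 and 0.12 are not counted as support for a direction. Without them 5 of 6 tested processome members were above 0, with a median of 0.21, and the median of all 42 members that passed the limit in both groups was -0.13. WDR43 had 3 tested probes, 2 above 0 (0.26 and 0.28) and 1 below (-0.27).

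Late 40S assembly, the steps that finish the small subunit before and after its export, had 6 tested members, none called, and a median of -0.07. BYSL, bystin, had the smallest P of these, at -0.44 ± 0.33 (adjusted p = 0.484, limma). Its levels were 6.42, 7.12 and 7.33 in the long FSH cows, against 7.08, 7.72 and 7.39 in the conventional FSH cows, and the groups overlapped. It was dim, above the limit in 3 of 6 long FSH readings and 5 of 6 conventional FSH readings. LTV1, a factor removed late in 40S maturation, was above 0 in all 3 pairs (0.29 ± 0.17). RRP12, an export factor, was at 1.04 in pair 1 and near 0 in the others (-0.06 and -0.17). PNO1, TSR1 and the nuclease NOB1, which makes the final cut of 18S ribosomal RNA, had ratios of -0.20, -0.10 and -0.05.

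The 60S assembly factors were the largest group, with 14 of 17 members tested, none called, 7 below and 7 above 0, and a median of -0.02. RRS1, which helps load the 5S particle in yeast, had the lowest ratio at -0.50 ± 0.79. Its long FSH cows were at 7.33, 7.18 and 7.77, against 8.09, 8.31 and 7.38 for the conventional FSH cows, and pair 3 ran opposite to the other pairs. RRS1 was dim, above the limit in 4 of 6 long FSH readings and 6 of 6 conventional FSH readings. GNL2, a GTPase of the pre-60S particle, was at 8.72, 8.62 and 8.77 in the long FSH cows, against 9.35, 9.14 and 8.92 in the conventional FSH cows. GNL2 had no overlap and the smallest P of the 60S group, at -0.43 ± 0.25 (adjusted p = 0.475, limma). NOC2L did not overlap either (-0.38 ± 0.19, adjusted p = 0.50, limma).

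At the high end of the 60S group, RRP15 was at 0.49 ± 0.70, with 9.19, 10.11 and 10.04 in the long FSH cows against 8.58, 8.99 and 10.30 in the conventional FSH cows. Pair 3 ran opposite, and the groups overlapped. GRWD1, a chaperone of a ribosomal protein, was above 0 in all 3 pairs (0.34 ± 0.16, adjusted p = 0.519, limma). The other 9, among them the methyltransferase NOP2, the PES1 partner WDR12 and EBNA1BP2, lay between -0.21 and 0.13. NOP16 had 3 tested probes that pointed different ways (0.01, 0.30 and -0.36), and the 2 probes of NIP7 were both near 0 (0.05 and -0.01).

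**Figure D3:**
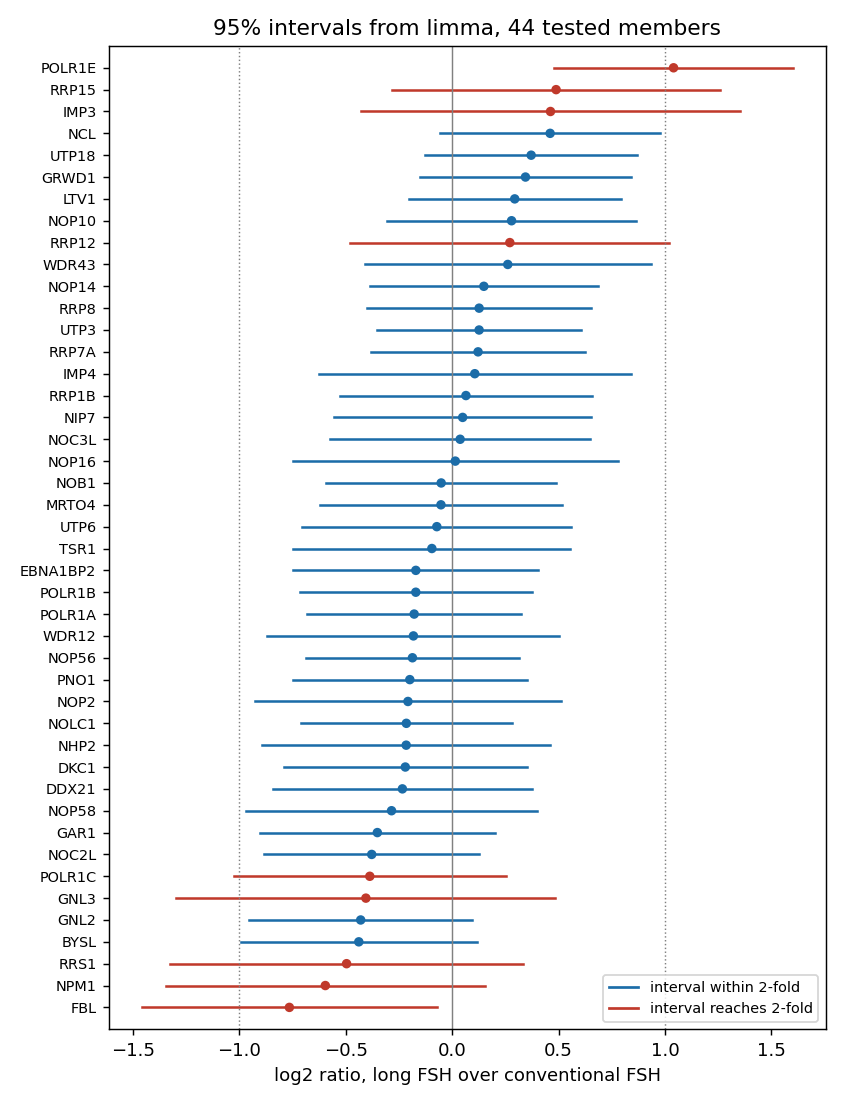
Log2 ratio of long over conventional FSH (horizontal axis) with its 95% interval from limma for the 44 tested members, ordered by ratio; dotted lines mark 2-fold. The interval lies within 2-fold for 35 members and reaches it for 9, of which POLR1E is the one with the whole interval above 0 and FBL the one with the whole interval below 0.

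For most members the data bound the difference. The 95% interval lay within 2-fold in either direction for 35 of the 44, against 62.0% of all tested genes. The 9 others were POLR1C, POLR1E, FBL, NPM1, GNL3, IMP3, RRP12, RRS1 and RRP15, for which a 2-fold difference is inside the interval. The SD over the pairs had a median of 0.38 for the members, against 0.42 for all genes. The intervals reached from 0.48 to 0.89 on each side of the ratio. With 3 pairs, a ratio smaller than its own reach could not pass even the unadjusted limit. Larger ratios could still fail after adjustment over all genes, as POLR1E did at 1.04 (adjusted p = 0.199, limma).

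Counted by pair, 6 members were above 0 in all 3 pairs (18.8% of all genes were) and 8 were below 0 in all 3 (17.2% of all genes). The 6 include UTP3, without which 5 remain. The other 30 changed sign between pairs. Every long FSH cow was above every conventional FSH cow for 2 members, POLR1E and UTP18, where 8.64% of all genes had this. Every long FSH cow was below for 6 members, FBL, GAR1, NPM1, NOLC1, GNL2 and NOC2L, against 6.26% of all genes. These 6 are 13.6% of the tested members, and in 5 of them the ratio did not pass even the unadjusted limit.

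The median of the members differed between the pairs. It was 0.02 in pair 1, -0.21 in pair 2 and 0.14 in pair 3, where the medians of all genes were 0.02, 0.04 and 0.00. In pair 2, 33 of 44 members were below 0, against 22 in pair 1 and 18 in pair 3. A combination of negative in pairs 1 and 2 and positive in pair 3 was found for 11 members (25%), among them GNL3, NOP58, RRS1 and NHP2. It was found for 13.1% of all genes, and this count was not among the planned ones. The combination was not particular to the members. Cytosolic ribosomal proteins had it in 27.9%, mitochondrial ribosomal proteins in 21.9% and the other ribosome biogenesis genes described below in 21.5%. Over the 44 members the ratios of pairs 1 and 2 had r = 0.43, those of pairs 1 and 3 r = 0.004 and those of pairs 2 and 3 r = 0.09, as a description across genes that share the same arrays. Over all tested probes the same values were 0.43, 0.16 and 0.16.

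**Figure D4:**
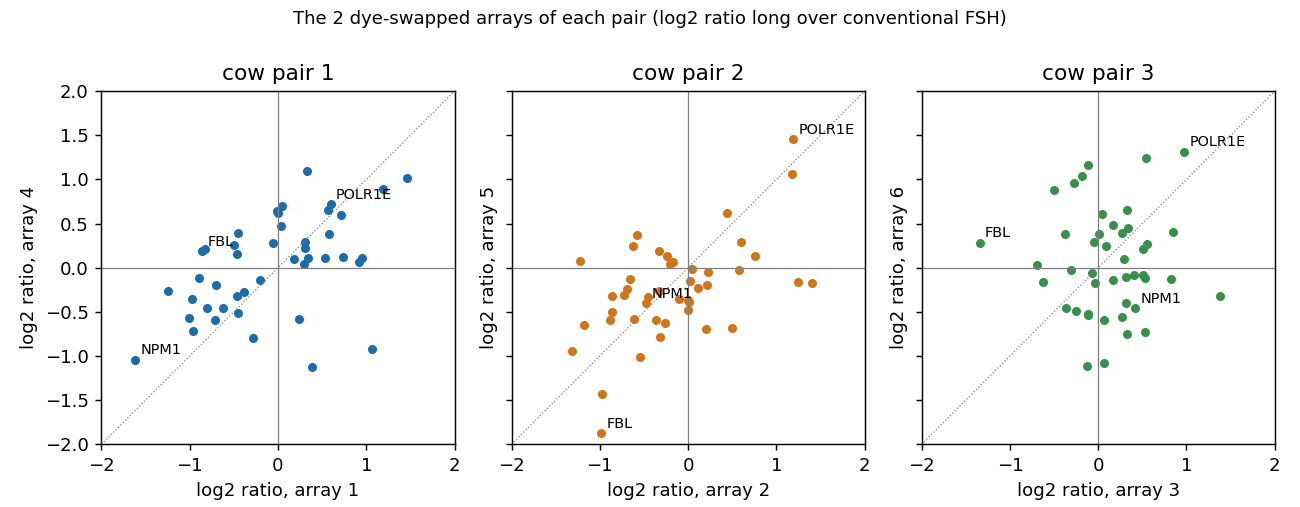
Log2 ratio of long over conventional FSH of the 44 members on the 2 arrays of each cow pair (axes, log2 units), which hold the same RNA with the dyes exchanged; the dotted line marks equal values. Members scatter along the line in pairs 1 and 2 (r = 0.49 and 0.55) and not in pair 3 (r = -0.002), where POLR1E nevertheless lies near the line and FBL does not.

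Repeat hybridisation of the same RNA limited what pair 3 can show. The members' ratios on its 2 arrays had r = -0.002 and the same sign in 22 of 44 (50%), where 51.8% of all genes agreed in sign. In pair 1 the sign agreed for 34 members (77.3%, against 64.3% of all genes), and in pair 2 for 25 (56.8%, against 70.7%). The arrays of pair 3 lay on slides of their own, while pairs 1 and 2 shared a slide in each dye orientation, so pair 3 and its slides cannot be told apart. No reading of a member was saturated.

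Of 129 other ribosome biogenesis genes, such as further processome, exosome and pre-60S factors, 107 were tested and none was called. Their median was -0.01, with -0.07, -0.19 and 0.09 in pairs 1, 2 and 3, the same order of pairs as for the members. Without the fold limit 1 of the 107 was higher and 3 were lower, against 6.91% and 4.75% of all genes. MPHOSPH10 and EXOSC8 are named for the smallest P of this list, and LYAR and BMS1 were named after their values were seen. MPHOSPH10, a processome protein that binds IMP3 and IMP4, had the smallest spread of these, with 11.37, 10.23 and 10.67 in the long FSH cows against 12.22, 11.14 and 11.50 in the conventional FSH cows, a ratio of -0.86 ± 0.03 (adjusted p = 0.211, limma). Each long FSH cow was thus below its partner by nearly the same amount, although the groups overlapped. EXOSC8, an exosome subunit, was at -0.65 ± 0.30, LYAR at -0.80 ± 0.61, and the GTPase BMS1 at 0.63 ± 0.40.

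MYC varied more between pairs than any member. Its levels were 7.55, 8.37 and 9.42 in the long FSH cows, against 8.49, 8.29 and 7.33 in the conventional FSH cows, which gave ratios of -0.94, 0.08 and 2.08 in pairs 1, 2 and 3 (mean 0.41 ± 1.54, adjusted p = 0.752, limma). The pairs did not agree in direction, and without pair 3 the ratio was -0.43. None of the 8 tested genes of the MYC network was called. MAX, the partner of MYC, was at 0.39 ± 0.29, and the repressor MXD4 at -0.23 ± 0.18.

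**Figure D5:**
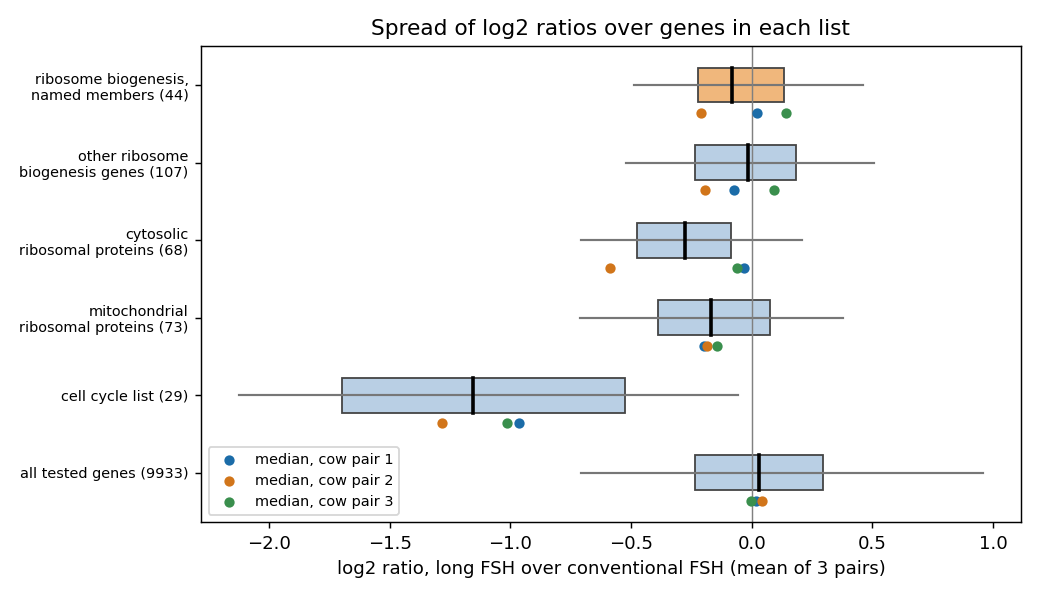
Log2 ratio of long over conventional FSH (horizontal axis) over the genes of 5 lists and all tested genes (number tested in parentheses); boxes span the quartiles, black lines are medians, whiskers run from the 5th to the 95th percentile of genes, and points are the medians of single cow pairs. The members' box straddles 0 (median -0.08) as that of all genes does (0.03), while the cell cycle list lies at -1.16.

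Both lists of ribosomal proteins, cytosolic and mitochondrial, had medians below that of the members (-0.08). Of 68 cytosolic ribosomal proteins tested 1 was lower, RPLP2 of the ribosomal stalk (-1.16 ± 1.12), and none was higher. Their median was -0.28, with -0.59 in pair 2 and -0.03 and -0.06 in pairs 1 and 3. RPL13A, of the 60S subunit, was at -0.71 ± 0.47 and was not called. Of 73 mitochondrial ribosomal proteins 3 were lower, MRPL37 (-1.04 ± 0.28), MRPL24 (-1.02 ± 0.66) and MRPL42 (-1.23 ± 1.18, named after its value was seen), and their median was -0.17. The differences between these lists were not tested.

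The cell cycle list had 18 of 29 tested genes lower and none higher, with a median of -1.16 and of -0.96, -1.28 and -1.01 in pairs 1, 2 and 3. BIRC5, survivin, was at -2.15 ± 0.35 and CCNB2, cyclin B2, at -2.02 ± 0.33. The members had 0 of 44 lower in the same cows. This list was chosen with earlier results of these data known, so its direction is not independent evidence here.

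Markers of cell types were measured in the same readings. Granulosa markers were detected for 11 of 15 genes, with a summed linear intensity of 46837 to 63206 in the long FSH cows, against 97502 to 150984 in the conventional FSH cows. Of these 3 were called higher and 4 lower, with ratios from -3.79 to 2.94, so the summed intensity is no measure of the number of granulosa cells. FOXL2 had no reading above the limit, and LHCGR, NR5A1 and HSD17B1 were too dim to test. Leukocyte markers were detected for 14 of 22 genes, all with a mean ratio above 0 (median 0.74), of which TYROBP was called higher (1.89 ± 1.36). The median of these markers was 0.37 in pair 1, 0.09 in pair 2 and 1.54 in pair 3, and in pair 2, 6 of the 14 were below 0. Their sums were 4039 to 10381 in the long FSH cows, against 3026 to 6707 in the conventional FSH cows, with the highest sum of each group in pair 3, and NKG7, ITGAM and CSF1R had no reading above the limit.

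Theca markers were detected for 8 of 10 genes, and CYP17A1 was too dim to test. Of the 8 genes, 4 had a ratio above 0 and 4 below (median 0.04), with 2 called lower and 0 higher. Their sums were 9029 to 12358 in the long FSH cows against 13307 to 31447 in the conventional FSH cows. The sums therefore do not describe the theca list as a whole. Of endothelial markers 6 of 10 were tested, none was called, and their sums were 813 to 880 in the long FSH cows against 911 to 945 in the conventional FSH cows. Of red blood cell markers 2 of 8 and of oocyte markers 2 of 10 were tested, with none called. The part of these markers in the ratios of POLR1E and the other members was not tested.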

How the data were processed

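The scanner files hold the intensity of each spot and its local background for both dyes, deposited by the authors as extracted, without normalization. Spot medians less background medians were used, with 0.5 in place of values that were not above 0, and the resulting log2 ratios had loess applied within each array and mean intensities matched between arrays (Aquantile; limma 3.58.1, R 4.3.3). Background step, loess and limma follow the study's methods, which name quantile normalization between arrays, whereas Aquantile leaves the log ratios as they are and quantile normalization of each channel was run as an alternative. The authors also deposited a table of normalized log2 ratios, used as an alternative only. Its column medians lie near 0, its centring is not given in the sources used here, and each column correlated best (r = 0.84 to 0.90) with the scanner file of its dye-swap partner. Of 43794 probes, 23480 passed the filter and 41.8% to 51.4% exceeded the background limit per array and dye. Median foreground was 127 to 220 and median background 19 to 49. The number of arrays limits the precision.

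Both arrays of each pair were averaged first, and limma was fitted on the 3 resulting means over all tested probes. The brightest tested probe stood for a gene. Symbols came from the platform annotation, with 1520 probes renamed through RefSeq synonyms. Cows of a pair share a number in the sample titles and an array, and their deviations from the group means had r = 0.15 to 0.26, against -0.01 at most for other cows. Because the levels of both cows come from the same arrays, these values cannot show that the cows themselves were alike. The p-values measure the spread between these pairs only, and limma draws the spread of each probe toward that typical of all tested probes. Named members were those called, the 3 highest and 3 lowest ratios, and the smallest P of each role. Named genes of other lists were MYC and at most 2 of a list with the smallest P. Further genes of these lists, among them LYAR, BMS1, POLR1H and MRPL42, were named after their values were seen. GAR1, NOC2L, NOLC1 and other members given beyond these were chosen after their values were seen. The members and lists were chosen with earlier results of these data known. Sequences and promoter motifs were not analysed here.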

Additional observations from a re-analysis of the deposited data

How the results depend on the processing

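POLR1E stayed above 0 in all 24 alternatives that keep the direction of the dyes, between 0.90 and 1.23, and its unadjusted P stayed at or below 0.05 in each (limma). It was called in 18. The count of members higher became 0 with no background subtraction (ratio 0.999) and with quantile normalization of each channel (0.99), and ranged from 0 to 1 when a pair or an array was left out. It fell under 2-fold without pair 2 (0.90), without pair 3 (0.99) and without the second array of pair 2 (0.996) or of pair 3 (0.98). Members lower numbered 1 (FBL) with a 1.5-fold limit and 0 to 1 when a pair or an array was left out, FBL reaching -1.04 without the second array of pair 3. FBL ranged from -1.04 to -0.43 over these, and its unadjusted P (limma) was over 0.05 without pair 2 (-0.43), without pair 3 (-0.88), without the first array of pair 1 (-0.59) or of pair 3 (-0.49), and with trend and robust (-0.77). UTP18 was at 0.15 in the deposited table and at 0.14 without the first array of pair 2. With the sign of every ratio turned, 0 members were higher and 1 was lower. At an adjusted p of 0.05 or less, 1 member (POLR1E) passed when the 6 arrays were fitted with the cow pair as replicate block (adjusted p = 0.0172, consensus correlation 0.15), with the slide as random block (0.012) or with a dye term (0.0165). These fits count both arrays of a pair and passed 485, 558 and 489 of all genes. Without the replicate block, as cows 3 against 3, the count was 0. Over all alternatives POLR1E had an adjusted p of 0.012 to 0.526. Members below 0 in all 3 pairs numbered 5 with median centring and 5 to 12 when a single array was left out; with a pair left out this count could not be made. The members' median stayed below 0, from -0.16 to -0.04, and was 0.08 with the sign turned. MYC ranged from -0.43 to 1.08 when a pair or an array was left out, and was below 0 without pair 3. MXD4 was at 0.0031 in the deposited table. The cause of these shifts was not tested. Dim members (BYSL, POLR1C, DDX21, NOP2, UTP3, RRP7A, RRP1B, RRP8, MRTO4, RRS1) sit close to the background limit.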
